A study of Mus musculus with 19 samples.

Results

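Fibroblasts grown from gonad were set directly against fibroblasts grown from tail of adult mice, at 3 arrays a side. The 6 arrays were chosen by the organ their labels name and make up 6 of the 19 samples of a series on cultured mouse fibroblasts from 7 organs. The contrast takes in an internal site and a surface site that both lie toward the posterior end of the body. The gonad samples (replicates 1 to 3) and the tail samples (replicates 1 to 3) share everything else the labels give: mice of 8 to 10 weeks, tissue cut to pieces of 2 to 3 mm, digestion with trypsin or collagenase for 40 min at 37 °C, and 5 days of culture with 10% serum. The labels state neither sex nor strain, nor whether a gonad was a testis or an ovary, nor which of the 2 enzymes a sample received. Nor do they tie replicates to separate animals, and p-values therefore measure only the spread between samples of an organ, which may be technical. The other 5 organs were heart, kidney, liver, lung and skin, and their arrays entered the fit as separate organ means.

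Fibroblasts are the mesenchymal cells that make the collagen-rich matrix of connective tissue, and cultured fibroblasts are known to keep a part of the gene programme of the site they came from. Best known is the Hox code: the Hox transcription factors lie in 4 chromosomal clusters, and their order within a cluster, numbered as paralogue groups, follows the order in which they act from the anterior to the posterior end of the body, with group 13 acting at the tail tip, the digits and the urogenital outlet. Gonadal mesenchyme arises from the coelomic epithelium, the mesothelial lining of the body cavity, under regulators such as Wt1, Gata4 and Nr5a1, whereas a tail piece holds dermis, tendon and vertebral connective tissue.

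Each array was a 1-colour Agilent scan of 62976 spots, hybridised with Cy3-labelled RNA from 0.1 µg. A value below, called a scaled log2 signal, is the log2 of a probe's background-subtracted signal less the 75th percentile of its own array. Levels are read between arrays for 1 gene, not between genes. For dim genes that reading is limited, since the low end of the scale differed between arrays. The 1st percentile of probes stood at -7.61, -7.59 and -6.94 on gonad arrays 1 to 3, and at -7.65, -6.80 and -6.82 on tail arrays 1 to 3. The share of spots well above background was 54.7%, 53.9% and 90.8% on gonad arrays 1, 2 and 3, against 75.5%, 84.9% and 71.9% on tail arrays 1, 2 and 3. On 5 of the 18 arrays with a scanner file, the dark control spots exceeded the range that the scanning software accepts. These high-background arrays were gonad 3, tail 2, heart 1, kidney 1 and kidney 2, so both kidney arrays in the fit were among them. Gonad 1 and 2 correlated at 0.990 over all genes, gonad 3 reached 0.905 and 0.906 with them and 0.944 with a skin array, and the 3 tail arrays correlated at 0.975 to 0.982. Results are therefore also given without gonad 3 and tail 2. Replicates with the same number shared a slide, so each of the 3 slides held 1 gonad and 1 tail array.

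Of 19715 genes tested, 570 were higher and 568 were lower in gonad than in tail (limma's moderated test, Benjamini-Hochberg adjusted p under 0.05 and a log2 difference of at least 1). The calls made up 5.77% of the genes tested, with 2.89% called higher and 2.88% called lower. Differences were large: 268 genes were at least 8-fold higher and 223 at least 8-fold lower by the fitted value, and the fitted log2 differences ran from -14.70 to 10.77. In all 1138 called genes the 3 gonad values and the 3 tail values did not overlap, which held for 25.4% of the genes tested. The median difference over all genes was -0.29, with -0.15, -0.40 and 0.12 within slides 1, 2 and 3, and list medians below are read against it. Without gonad 3 and tail 2 the count was 897, of which 417 were higher and 480 lower. Of these, 756 were shared with the first count in the same direction, 409 higher and 347 lower, and none was opposite. Leaving out a single array changed the total to 732 (gonad 2), 2383 (gonad 3), 718 (tail 1) or 2080 (heart 1), and to 761 to 1167 for the other 14 arrays, while leaving out all 5 high-background arrays gave 1215 higher and 4670 lower. Scaling each array to the median of its detected probes gave 203 higher and 1467 lower, and moved the median of all genes to -1.30.

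**Figure D1:**
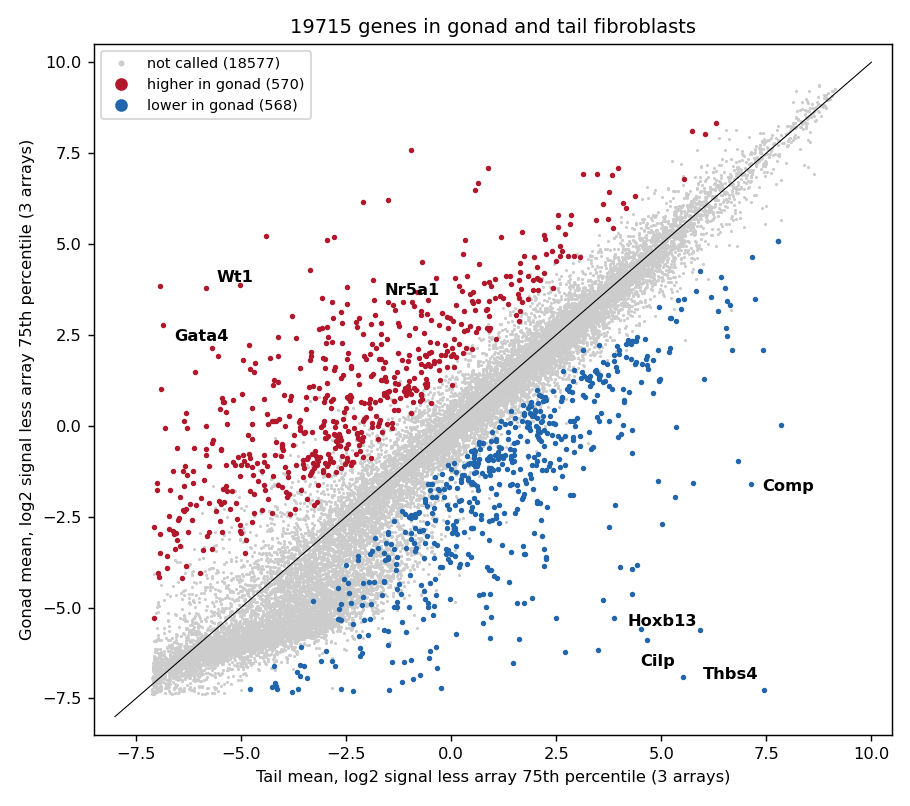
Mean scaled log2 signal of each tested gene in gonad (vertical axis, 3 arrays) and tail (horizontal axis, 3 arrays), with the 570 genes called higher in gonad in red, the 568 called lower in blue and the line of equal level in black. Wt1 and Gata4 lie at the upper left, low in tail, and Thbs4, Cilp and Hoxb13 at the lower right, low in gonad.

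The 4 marker genes of the contrast separated the arrays by label. Nr5a1, the nuclear receptor that drives gonadal and adrenal steroid-making cells, read 3.89, 3.45 and 3.00 on gonad arrays 1 to 3, against -2.50, -1.44 and -1.57 on tail arrays 1 to 3. Wt1, a zinc-finger factor needed for gonad and kidney formation and also made in mesothelium, read 4.25, 4.07 and 3.09 in gonad, against -4.71, -6.07 and -6.74 in tail, where 1 of 3 arrays was well above background. All 3 gonad arrays were thus high and all 3 tail arrays low for both genes. The fitted log2 difference was 5.29 ± 0.55 (SE, n = 3 each) for Nr5a1 (adjusted p = 5.3e-05) and 9.64 ± 0.69 for Wt1 (adjusted p = 3.18e-06). Hoxb13, the most posterior gene of the HoxB cluster, read -7.46, -6.07 and -3.31 in gonad, against 5.88, 5.70 and 6.17 in tail. Thbs4, a thrombospondin of tendon and muscle attachments, read -7.48, -7.36 and -6.94 in gonad, against 7.53, 7.20 and 7.59 in tail. Both were high on every tail array, and gonad 3 was the only gonad array with Hoxb13 well above background. Hoxb13 differed by -11.53 ± 1.08 (adjusted p = 2.59e-05). Thbs4 was not well above background on any gonad array and was at least 5950-fold lower in gonad (fitted log2 difference -14.70 ± 1.18, adjusted p = 7.94e-06), the largest fitted difference in either direction. The 12 arrays of the other 5 organs ran from -3.21 to 0.41 for Nr5a1, -4.71 to 5.32 for Wt1, -7.78 to -2.33 for Hoxb13 and -7.16 to -1.63 for Thbs4, so Nr5a1 in gonad and Hoxb13 and Thbs4 in tail lay outside that range while Wt1 in gonad lay inside it.

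Regulators of gonad formation were mostly higher in gonad where they were called. Of 25 tested, 9 rose and 2 fell, with a median of 0.54 against -0.29 over all genes (-0.47 against -1.30 with scaling to the median of detected probes). Gata4, a zinc-finger factor required for the gonadal ridge, read 3.38, 2.85 and 2.09 in gonad, against -7.48, -6.49 and -6.59 in tail. It was not well above background on any tail array, and gonad 3 was the lowest of the gonad arrays. Gata4 was at least 190-fold higher (log2 difference 9.62 ± 0.58, adjusted p = 6.17e-07). In the arrays of the other organs Gata4 ran from -6.89 to 2.73.

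Rspo1, the secreted Wnt amplifier needed for ovary development, read 3.09, 2.42 and 1.85 in gonad, against -3.12, -2.58 and -3.10 in tail (difference 5.38 ± 0.42, adjusted p = 6.66e-06). Wnt4, the ovary-promoting ligand whose signal Rspo1 strengthens, differed by 2.25 ± 0.55 (adjusted p = 0.0246; another probe 1.43), but the adjusted p was 0.0696 to 0.111 when any 1 of gonad 1, gonad 2 or the tail arrays was left out, and 0.0703 without gonad 3 and tail 2. Further members called higher were Tcf21, a bHLH factor of gonad and visceral mesenchyme (4.14), Gata6 (3.50) and Nr2f2, an orphan nuclear receptor of interstitial cells (2.07). Nr2f2 lost its call when gonad 1, gonad 2 or any tail array was left out (adjusted p 0.0573 to 0.0911), and without gonad 3 and tail 2 (0.0817). Members that mark a committed testis or ovary did not pass the test: Sox9, the testis-determining target of Sry, differed by 0.97 (adjusted p = 0.536), Dmrt1 by -0.15 (0.908) and Foxl2, the granulosa factor, by -0.50 (0.749).

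Genes of steroid hormone production and of hormone receptors showed 7 members higher and 1 lower among 22 tested, with a median of 0.58 (-0.43 with scaling to the median of detected probes, where all genes stood at -1.30). Cyp11a1, the enzyme that cuts the cholesterol side chain in the committing step of steroid synthesis, read -3.40, -0.96 and -1.55 in gonad, against -7.46, -5.52 and -6.34 in tail. No tail array was well above background, and Cyp11a1 was at least 7.12-fold higher in gonad (adjusted p = 0.00142). Hsd3b1, which makes progesterone from pregnenolone, read -1.45, -2.21 and -2.84 in gonad, against -7.07, -4.94 and -6.21 in tail, and was at least 6.18-fold higher (adjusted p = 0.000574). Gonad and tail arrays did not overlap for either gene. Star, which carries cholesterol into the mitochondrion, read 0.01, 0.11 and -1.44 in gonad, against -4.77, -2.83 and -4.90 in tail (3.73 ± 0.89, adjusted p = 0.0228). Its adjusted p was 0.0964 to 0.113 when gonad 1, gonad 2, tail 1 or tail 3 was left out, and 0.0143 without gonad 3 and tail 2, and another probe of the gene differed by 6.30. Akr1c14, a 3-alpha-hydroxysteroid dehydrogenase, read 2.12, 0.56 and 0.51 in gonad, against -3.35, -3.29 and -3.53 in tail (4.46 ± 0.49, adjusted p = 8.23e-05), and all 12 arrays of other organs lay below the gonad arrays (-4.44 to -1.36). Fdxr, which feeds electrons to the side-chain enzyme, differed by 1.97.

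Among the receptors, Amhr2, the receptor for anti-Müllerian hormone, read 4.07, 2.71 and 1.67 in gonad, against -2.23, -0.90 and -1.90 in tail (4.49 ± 0.80, adjusted p = 0.00315). Every gonad array was above every tail array for this receptor. The estrogen receptors did not pass the test, at 0.05 for Esr1 and 0.72 for Esr2, nor did the gonadotropin receptor Fshr (-1.50) or aromatase, Cyp19a1 (-0.85), which were well above background on 1 of 3 gonad arrays. Inhbb, the inhibin beta B subunit, was lower at -2.24 (adjusted p = 0.0489), a call lost on leaving out any 1 of the 6 gonad and tail arrays (0.0619 to 0.156) or any of 8 arrays of other organs and without gonad 3 and tail 2 (0.149). Since Nr5a1 protein is known to bind the letters AAGGTCA, promoters of this list were searched for them on both strands (reverse TGACCTT). The letters were held by 4.72% of 32851 mouse promoters and by 4.56% of 15620 tested genes with a promoter. Of 16 members with a promoter sequence, 1 held them, near the share of all tested genes, and this was Amhr2. Its promoter window (RefSeq, GRCm38.p6, chr15:102445117-102445416, plus strand, 250 bases before to 50 after the start) is shown because it holds the match, marked in capitals, which begins at position -231 from the start.
Amhr2: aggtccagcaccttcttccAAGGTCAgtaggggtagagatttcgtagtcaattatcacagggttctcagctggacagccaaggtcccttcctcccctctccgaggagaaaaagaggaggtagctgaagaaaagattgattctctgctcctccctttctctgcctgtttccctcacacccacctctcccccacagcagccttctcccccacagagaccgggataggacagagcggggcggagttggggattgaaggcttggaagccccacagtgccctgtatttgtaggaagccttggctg

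Markers of gonadal cell types other than fibroblasts were partly present. Of 18 markers of Sertoli and granulosa cells, which nurse germ cells, 4 rose and none fell, with a median of 0.65 (-0.36 with scaling to the median of detected probes). Dhh, the hedgehog ligand Sertoli cells send to the interstitium, read 3.25, 2.42 and 1.21 in gonad, against -3.05, -2.81 and -2.68 in tail (5.14 ± 0.64, adjusted p = 0.000225). Aard, a gene of Sertoli cells, read 3.62, 2.22 and 0.98 in gonad, against -2.96, -3.60 and -2.35 in tail (5.25 ± 0.80, adjusted p = 0.000998). For both, gonad 1 was highest and gonad 3 lowest, and no tail array reached them. Clu, a secreted chaperone abundant in Sertoli cells and many others, differed by 3.80 ± 0.53 (adjusted p = 0.000545). The defining hormone Amh was well above background on 1 of 3 gonad and 1 of 3 tail arrays and differed by -0.21 (adjusted p = 0.964). Over the whole list, 13, 12 and 17 members were well above background on the gonad arrays, against 15, 17 and 15 on the tail arrays. Of 10 Leydig and theca markers, 3 rose and none fell: Cyp11a1, Hsd3b1 and Star, described above. Cyp17a1, the androgen-making enzyme, differed by 0.37 (adjusted p = 0.764).

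Germ cell markers showed no member higher and 1 of 19 lower, or 5 lower without gonad 3. Well above background were 4, 4 and 18 members on the gonad arrays, against 11, 16 and 13 on the tail arrays, with the highest count on gonad 3. The member that fell was Ddx4, the germ cell helicase also called Vasa, which read -4.70, -5.33 and -3.94 in gonad, against 0.91, 0.63 and 0.43 in tail (-5.32 ± 0.53, adjusted p = 3.96e-05). It was well above background on every tail array and on 2 of 3 gonad arrays, and the other organs' arrays ran from -6.83 to -2.96, below all tail arrays. Of the 5 sex-linked genes tested, none was called, and the Y-linked genes Ddx3y, Eif2s3y and Uty were well above background on all 6 arrays while Xist was on none. In these bulk samples, fewer cells of a type and less RNA per cell cannot be told apart.

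**Figure D2:**
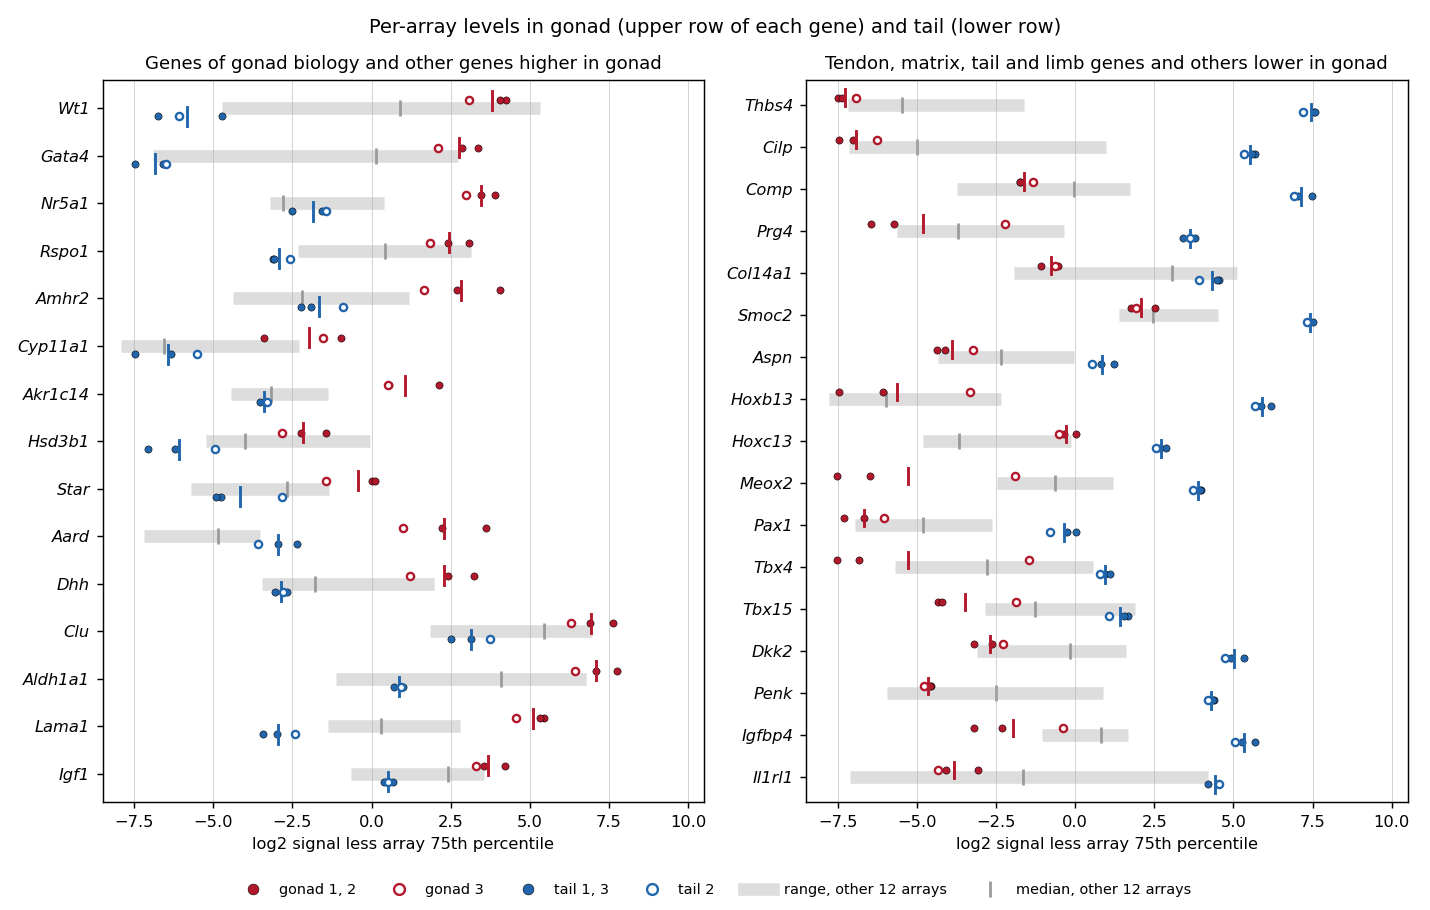
Scaled log2 signal (horizontal axis) of genes named in the text on each gonad array (red, upper row of a gene) and each tail array (blue, lower row), with vertical bars at the means, open circles for gonad 3 and tail 2, and grey bands with a tick for the range and median of the 12 arrays of other organs. The gonad and tail points of every gene shown are apart, and for Thbs4, Cilp and Comp the tail arrays also lie above the whole grey band.

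Hox genes were called in both directions. Of 12 tested genes of groups 1 to 4, 3 were higher in gonad and none lower (median 0.52, and -0.49 with scaling to the median of detected probes, which left no member called). Of 10 genes of groups 5 to 8, 2 were higher and none lower (median 1.48, and 0.47 with scaling to the median of detected probes), and of 10 genes of groups 9 to 12, 1 was higher and none lower (median -0.57, and -1.10, -1.12 and 0.77 within slides 1, 2 and 3). With quantile normalization 2 genes of groups 9 to 12 were higher and 2 lower, and with slide as a block 1 was higher and 2 lower. The 3 higher genes of groups 1 to 4 became 1 without gonad 1 or tail 3 and 5 without heart 1, the 2 of groups 5 to 8 became 1 without any of 10 arrays and 5 without heart 1, and in groups 9 to 12 leaving out gonad 3 or any heart array gave 2 or 3 lower. Of the 4 genes of group 13, none was higher and 2 were lower (median -3.56, and -2.28 with normexp and quantile normalization). The HoxD cluster held the 3 largest positive differences. Hoxd8 read 1.96, 1.82 and 0.89 in gonad, against -4.40, -4.25 and -5.74 in tail (6.35 ± 0.62, adjusted p = 3.62e-05). Hoxd9 read 0.83, 1.04 and 0.24 in gonad, against -6.65, -3.36 and -5.57 in tail, where 1 of 3 arrays was well above background (5.90 ± 1.13, adjusted p = 0.00547). All gonad arrays stood above 0 for both genes, and all tail arrays were far below it. Hoxd4 differed by 5.47 ± 1.22 (adjusted p = 0.0147), with an adjusted p of 0.0517 to 0.0861 when gonad 1, tail 1 or tail 3 was left out.

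Hoxa3 was also higher, at 2.70 ± 0.38 (adjusted p = 0.000538), and read 0.77, 0.56 and 0.56 in gonad, against -1.79, -2.18 and -2.23 in tail. The calls of Hoxc4 (2.42, adjusted p = 0.0126) and Hoxc6 (2.91, adjusted p = 0.0387) were lost without gonad 3 and tail 2, at 0.0748 and 0.112. That of Hoxc4 was also lost without gonad 1 or tail 3 (0.0598 to 0.0601), and that of Hoxc6 without any of gonad 1, gonad 2 and the tail arrays or 5 arrays of other organs (0.0506 to 0.131). At the other end Hoxc13 read -0.35, 0.04 and -0.51 in gonad, against 2.67, 2.56 and 2.87 in tail (-2.97 ± 0.57, adjusted p = 0.00558), so that all 3 tail arrays exceeded every gonad array. Hoxa13 differed by -4.15 ± 1.48 (adjusted p = 0.16) and by -6.20 without gonad 3 and tail 2, where it passed the test (adjusted p = 0.0141). Hoxd13 differed by 0.10 (adjusted p = 0.985) and was well above background on 1 gonad and 1 tail array. Within the group 10 and 11 genes, Hoxc11 at -3.97 (adjusted p = 0.051) and Hoxa11 at -3.51 (0.0541) missed the threshold, and Hoxd10 at 3.92 (0.102) had the opposite sign. Most HoxB genes of groups 1 to 7 had values near 0, from -0.54 for Hoxb3 to 0.49 for Hoxb4, and all of these but Hoxb1 were well above background on all 6 arrays, and another probe of Hoxb3 had the opposite sign (0.59).

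**Figure D3:**
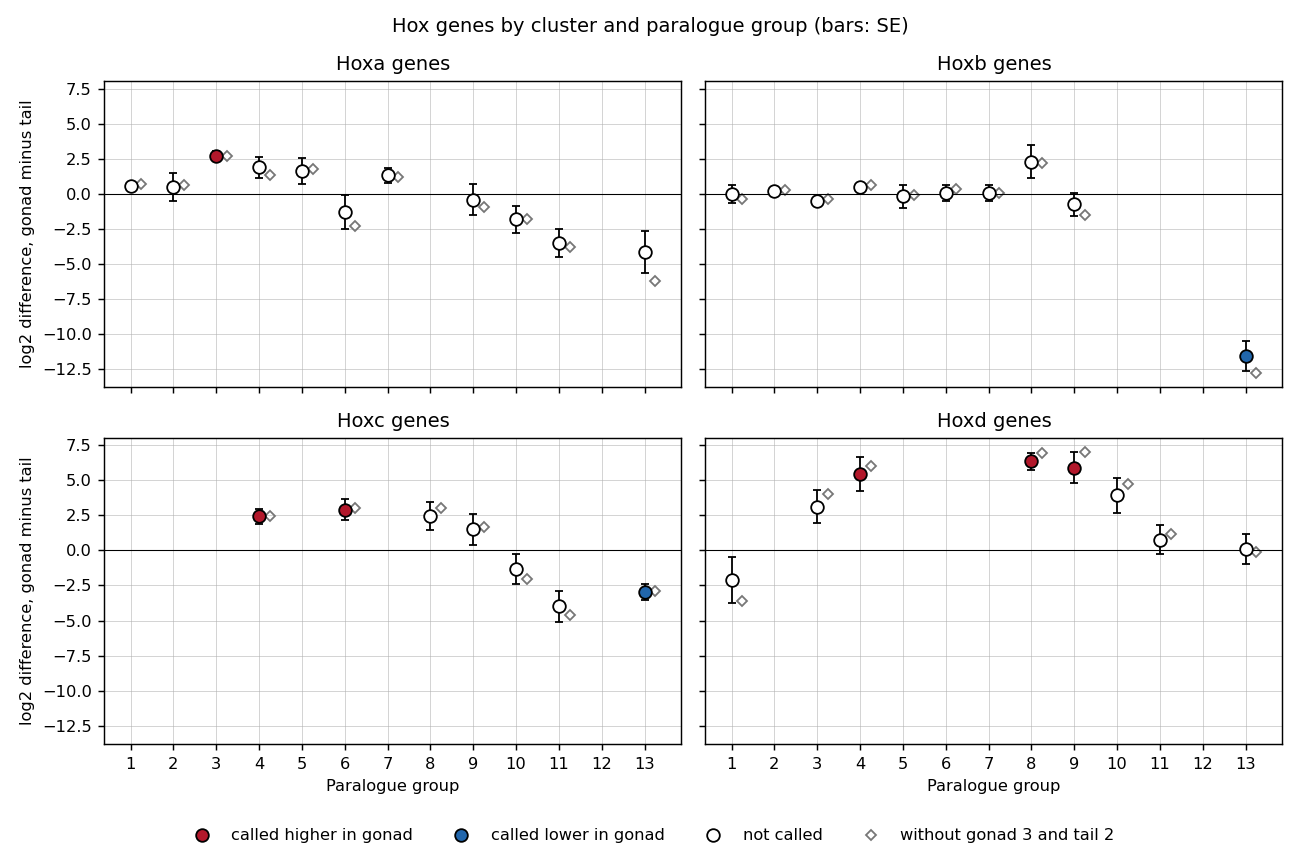
Fitted log2 difference, gonad minus tail (vertical axis), of each tested Hox gene against its paralogue group (horizontal axis), 1 panel a cluster, with SE bars. Red and blue points were called higher and lower in gonad, white points were not called, and grey diamonds give the value without gonad 3 and tail 2. Hoxd4, Hoxd8 and Hoxd9 stand highest and Hoxb13 lowest.

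Regulators of limb, tail and dermal mesenchyme were more often lower than higher in gonad: 7 of 34 tested fell and 1 rose, with a median of -1.52. The median was -0.78 with quantile normalization, -0.53 with normexp and quantile normalization and -0.75 in the authors' value table, and -2.10, -2.91 and -0.17 within slides 1, 2 and 3. Leaving out gonad 3 gave 15 lower and leaving out heart 1 gave 11 lower and 2 higher. Meox2, a homeobox factor of somite and limb muscle, read -7.51, -6.46 and -1.89 in gonad, against 3.97, 3.71 and 3.94 in tail (-9.16 ± 1.01, adjusted p = 9.08e-05). Only gonad 3 was well above background among the gonad arrays, and it remained below every tail array. Pax1, a factor of the vertebral sclerotome, read -7.30, -6.68 and -6.03 in gonad, against 0.03, -0.79 and -0.27 in tail, and was at least 27-fold lower in gonad (adjusted p = 0.000235). Tbx15, a T-box factor of dermis and limb skeleton, read -4.33, -4.19 and -1.87 in gonad, against 1.67, 1.06 and 1.53 in tail (-4.89 ± 0.65, adjusted p = 0.000374). The gonad and tail arrays were apart for each of these genes. Tbx4, the hindlimb T-box gene, read -7.51, -6.84 and -1.45 in gonad, against 0.94, 0.80 and 1.10 in tail, and gonad 3 stood far above the other gonad arrays. Its difference was -6.21 ± 1.40 (adjusted p = 0.0154), with an adjusted p of 0.0582 to 0.0857 when gonad 1, gonad 2, tail 1 or tail 3 was left out and 0.00185 without gonad 3 and tail 2. Prrx2 (-3.20) and Twist1 (-1.97), both factors of limb and skin mesenchyme, were also lower, and Tbx2 was higher (2.06 ± 0.35, adjusted p = 0.00218). Of 15 regulators of the embryonic tail bud, none was called in either direction, or 1 lower without gonad 3. The tail bud factors T and Cdx2 were each well above background on 1 gonad array and on 2 and 1 tail arrays.

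Tendon and ligament genes were lower in gonad in 9 of 17 tested and higher in 1, with a median of -2.15 against -0.29 over all genes. The lower count became 6 without gonad 1 or any 1 tail array, 7 without gonad 2 and 10 without heart 1. It was 7 without gonad 3 and tail 2, and 7 with slide as a block. Cilp, a matrix protein of cartilage and tendon, read -7.46, -7.01 and -6.27 in gonad, against 5.67, 5.33 and 5.58 in tail, and was at least 1579-fold lower in gonad (adjusted p = 3.18e-06). Comp, the cartilage oligomeric matrix protein of the thrombospondin family, read -1.74, -1.74 and -1.32 in gonad, against 7.48, 6.91 and 7.04 in tail (-8.74 ± 0.74, adjusted p = 1.24e-05). Comp was well above background on all 6 arrays, and the tail arrays stood far above the gonad arrays, which all lay below 0. Prg4, the joint lubricant lubricin, read -6.45, -5.72 and -2.23 in gonad, against 3.42, 3.63 and 3.80 in tail (-8.42 ± 0.97, adjusted p = 0.000115), and another probe of the gene differed by -1.69. Tnmd, a membrane protein of mature tenocytes, differed by -7.50 and Col14a1, a fibril-associated collagen, by -5.06, or -3.06 by another probe. The tendon transcription factors did not pass the test: Scx differed by 0.15 (adjusted p = 0.955) and Mkx by -1.62 (0.188), and both were well above background on all 6 arrays. The member that rose was Ptgis, prostacyclin synthase (2.47 ± 0.50, adjusted p = 0.00824), an enzyme of vessel walls and tendon.

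Matrix glycoproteins, a list that shares 6 members with the tendon list, were also more often lower than higher. Of 36 small proteoglycans, thrombospondins and matrix glycoproteins, 17 fell, 4 of them also counted in the tendon list, and 1 rose, with a median of -2.20 (-1.38 with normexp and quantile normalization). Without gonad 3 and tail 2, 11 were called lower and the same number, 1, higher. Leaving out gonad 1, tail 2 or tail 3 gave 11 lower, and leaving out tail 1 gave 10. Smoc2, a calcium-binding matricellular protein, read 1.76, 2.53 and 1.92 in gonad, against 7.40, 7.32 and 7.52 in tail (-5.34 ± 0.53, adjusted p = 4.28e-05). Its paralogue Smoc1 was the member that rose, and read 3.38, 3.67 and 2.32 in gonad, against -3.03, -2.16 and -2.70 in tail (5.76 ± 0.64, adjusted p = 9.84e-05). The pair thus differed in opposite directions with no overlap of arrays in either gene. Aspn, a small leucine-rich repeat protein that binds collagen, read -4.36, -4.10 and -3.22 in gonad, against 1.24, 0.52 and 0.81 in tail (-4.75 ± 0.52, adjusted p = 9.08e-05). Vit (-4.07) and Matn2 (-3.06) were lower too. Decorin, Dcn, differed by -2.10 (adjusted p = 0.0771) and periostin, Postn, by 0.29 (adjusted p = 0.879).

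Among 30 collagen genes, 5 were higher and 5 lower in gonad. The higher count became 3 without gonad 1, tail 1 or tail 3, and the lower count became 3 without gonad 1, gonad 2, tail 1 or tail 2, 9 without gonad 3 and 8 without heart 1. Those higher lay on the basement membrane side. Col4a1 read 7.14, 7.24 and 6.30 in gonad, against 3.61, 4.11 and 3.76 in tail (3.06 ± 0.53, adjusted p = 0.00264), and its chain partner Col4a2 differed by 2.68 ± 0.48 (adjusted p = 0.00346). Col15a1, found at the border of basement membranes, read 1.00, 1.08 and 2.55 in gonad, against -3.49, -1.84 and -3.05 in tail (4.33 ± 0.61, adjusted p = 0.000553). Lama1, the laminin alpha 1 chain of early basement membranes, read 5.45, 5.31 and 4.56 in gonad, against -3.42, -2.42 and -2.99 in tail (8.05 ± 0.45, adjusted p = 3.32e-07). For each of these genes all gonad arrays exceeded all tail arrays. Those lower included the fibrillar collagens Col5a3 and Col27a1 and the fibril-associated Col14a1. Col5a3 read 0.88, 0.72 and 0.40 in gonad, against 4.09, 4.17 and 4.08 in tail (-3.45 ± 0.47, adjusted p = 0.000396). Col27a1 differed by -2.95 ± 0.30 (adjusted p = 5.22e-05) and Col14a1 by -5.06 ± 0.56 (adjusted p = 9.08e-05). The main fibrillar collagens of fibroblasts did not pass the test, with 0.16 for Col1a1, -0.03 for Col1a2 and 0.22 for Col3a1. In 23 cartilage and bone genes 2 rose and 2 fell, but leaving out gonad 2 or tail 3 left 1 higher and none lower, leaving out gonad 1, tail 1 or tail 2 left 1 each way, and leaving out gonad 3 gave 5 lower. Col11a1, a fibrillar collagen of cartilage, was higher, with 3.14, 3.04 and 3.28 in gonad, against -0.66, -0.60 and -0.88 in tail (3.87 ± 0.55, adjusted p = 0.000587).

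Secreted signals of the Wnt pathway changed in both directions: 3 of 33 ligands, amplifiers and antagonists rose and 5 fell (median -0.64, but 0.19 with quantile normalization, 0.03 with normexp and quantile normalization, and -0.35, -1.19 and 0.21 within slides 1, 2 and 3). Without heart 1 the counts were 5 and 8. The R-spondins split. Against Rspo1, higher in gonad as given above, Rspo3 read -3.91, -3.01 and -1.41 in gonad, against 4.17, 3.41 and 3.73 in tail (-6.54 ± 0.67, adjusted p = 5.21e-05), and Rspo2 read -3.29, -3.75 and -4.50 in gonad, against 2.29, 2.06 and 2.25 in tail (-6.05 ± 1.09, adjusted p = 0.00361). Rspo2 and Rspo3 were high on every tail array and low on every gonad array. Dkk2, a Wnt antagonist of dermis, read -3.20, -2.62 and -2.27 in gonad, against 5.33, 4.75 and 4.94 in tail (-7.70 ± 0.62, adjusted p = 7.94e-06). Sfrp4, another antagonist, was at least 10.6-fold higher in gonad, with no tail array well above background (adjusted p = 0.000402). Lgr5, an R-spondin receptor and stem cell marker, was lower: no gonad array was well above background, and the difference was at least 93.1-fold (adjusted p = 0.000108). Wnt5a, a ligand of distal limb and tail outgrowth, differed by 0.16 (adjusted p = 0.943), and the target genes Axin2 and Lef1 by -0.67 and -0.64, neither called.

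Other growth factor families also held large single differences. In the BMP and TGF-beta family 4 of 32 rose and 3 fell. The higher count became 2 without any 1 of gonad 1, gonad 2 and the tail arrays, the lower count became 6 without gonad 3, and without both gonad 3 and tail 2 the counts were 2 and 1. Gdf6, a joint- and skull-forming ligand, read 0.61, 1.26 and 0.45 in gonad, against -3.33, -2.88 and -3.49 in tail (4.01 ± 0.58, adjusted p = 0.000706), and Gdf10 was at least 20.5-fold lower in gonad, with no gonad array well above background (adjusted p = 0.00144). In the insulin-like growth factor axis 1 of 15 rose and 1 fell, with 2 lower without gonad 3, heart 1 or liver 2 and 2 higher without heart 1. Igf1, the ligand, read 4.21, 3.56 and 3.30 in gonad, against 0.67, 0.53 and 0.39 in tail (3.16 ± 0.46, adjusted p = 0.000706), and 3 other probes of the gene differed by 2.27 to 3.24. Igfbp4, a binding protein that holds back the ligand, read -3.18, -2.31 and -0.38 in gonad, against 5.26, 5.04 and 5.68 in tail (-7.28 ± 0.67, adjusted p = 2.35e-05). The ligand was thus high where its binding protein was low, on all 6 arrays, and all 12 arrays of other organs had less Igfbp4 than any tail array. Among FGF and PDGF genes 2 of 21 rose and 4 fell, with 2 lower without gonad 2 and 4 higher without heart 1. Pdgfb, the pericyte-recruiting ligand of endothelium, read 1.66, 2.54 and 1.90 in gonad, against -3.63, -3.34 and -3.03 in tail (5.36 ± 0.53, adjusted p = 3.89e-05), while another probe of the gene differed by 1.55. Fgf7, the keratinocyte growth factor, read 1.49, 1.24 and 1.00 in gonad, against 5.11, 4.93 and 4.77 in tail (-3.69 ± 0.54, adjusted p = 0.000723). Fgf1 was higher by its chosen probe (3.14), while another probe of the gene differed by -0.69.

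Hedgehog and retinoic acid genes followed. Of 13 Hedgehog genes, Dhh rose and 2 fell: Gas1, a co-receptor, read -1.64, -0.98 and -0.99 in gonad, against 2.44, 2.20 and 2.60 in tail (-3.62 ± 0.42, adjusted p = 0.000123; 2 other probes -2.74 and -1.70), and Hhip, a decoy receptor and pathway target, differed by -5.86 ± 0.96 (adjusted p = 0.00175), with 1 of 3 gonad arrays well above background, while another probe of Hhip differed by -2.25. Without heart 1, 4 Hedgehog genes were lower. The pathway targets Gli1 (0.55) and Ptch1 (-1.23) were not called. Of 18 retinoic acid genes 3 rose and 2 fell, or 1 fell without gonad 1 or tail 1. Aldh1a1, a retinaldehyde dehydrogenase, read 7.75, 7.10 and 6.43 in gonad, against 0.71, 0.92 and 1.01 in tail (6.21 ± 0.63, adjusted p = 4.58e-05). Aldh1a2, the main embryonic enzyme of the same step, read 3.35, 4.40 and 3.25 in gonad, against -1.34, -0.62 and -0.51 in tail (4.49 ± 0.55, adjusted p = 0.000196). Both synthetic enzymes were high on every gonad array. Crabp1, which binds retinoic acid in the cytoplasm and is a mark of dermal fibroblasts, read -4.30, -4.38 and -1.94 in gonad, against 2.06, 1.99 and 1.26 in tail (-5.31 ± 0.69, adjusted p = 0.000284). The degrading enzymes Cyp26a1 (1.42) and Cyp26b1 (0.35) were not called.

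Genes that interferon is known to switch on were lower in gonad: 10 of 19 tested fell and none rose, with a median of -2.66. With 3 other ways of scaling or background correction, and with the authors' value table, 11 to 15 members were called lower and none higher. The 15 came with scaling to the median of detected probes, where all genes stood at -1.30. The count was 13 without gonad 3 and tail 2, 16 without gonad 3 alone and 14 without heart 1. It became 7 without gonad 1 or tail 1, 8 without gonad 2 or tail 3, and 9 without tail 2. Promoters of interferon-stimulated genes are known for the interferon-stimulated response element. Its core was searched as GAAA, any 2 bases and GAAA again, on both strands (reverse TTTC, any 2 bases, TTTC). Of 16 members with a promoter sequence 10 held it, and 6 of the 9 of these called lower did, against 3.44% of 32851 mouse promoters and 3.94% of 15620 tested genes with a promoter. Since the list was drawn up from known interferon targets, a high share does not bear on the contrast. The promoters of the 3 strongest called members that hold the core are shown, each from 250 bases before to 50 after the start, 5' to 3' on the gene's strand (RefSeq, GRCm38.p6), with the core in capitals. They lie at chr19:34640639-34640938 (plus strand) for Ifit1, chr19:34583279-34583578 (plus strand) for Ifit3 and chr5:120907476-120907775 (minus strand) for Oas1a, and the first capital stands at -104, -156 and -20 from the start. Each holds 2 matches, which overlap in Oas1a.
Ifit1: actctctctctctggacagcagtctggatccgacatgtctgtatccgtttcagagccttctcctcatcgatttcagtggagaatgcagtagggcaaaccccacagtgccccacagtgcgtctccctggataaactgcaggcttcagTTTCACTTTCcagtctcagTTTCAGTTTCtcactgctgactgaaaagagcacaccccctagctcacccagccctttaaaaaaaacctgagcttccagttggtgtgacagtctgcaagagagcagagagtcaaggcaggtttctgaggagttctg
Ifit3: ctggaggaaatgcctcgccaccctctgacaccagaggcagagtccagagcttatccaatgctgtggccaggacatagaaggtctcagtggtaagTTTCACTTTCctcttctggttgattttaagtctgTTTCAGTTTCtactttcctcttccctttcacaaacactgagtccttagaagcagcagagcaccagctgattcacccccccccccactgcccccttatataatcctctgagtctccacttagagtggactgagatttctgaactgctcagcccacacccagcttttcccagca
Oas1a: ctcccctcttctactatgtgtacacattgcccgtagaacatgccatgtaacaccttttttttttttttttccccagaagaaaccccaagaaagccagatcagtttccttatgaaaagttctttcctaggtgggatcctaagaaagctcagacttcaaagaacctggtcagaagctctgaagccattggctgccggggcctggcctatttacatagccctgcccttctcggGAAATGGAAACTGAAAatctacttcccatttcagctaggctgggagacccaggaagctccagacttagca

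Ifit1, which blocks translation of viral RNA, read -2.74, -3.68 and -0.76 in gonad, against 1.75, 0.47 and 1.52 in tail (-3.64 ± 0.70, adjusted p = 0.00567). Ifit3, its partner protein, read -1.06, -1.63 and 0.55 in gonad, against 3.73, 2.14 and 2.90 in tail (-3.63 ± 0.68, adjusted p = 0.00441). Oas1a, a sensor of double-stranded RNA, read -5.12, -4.34 and -2.46 in gonad, against 1.85, -0.19 and 1.03 in tail (-4.87 ± 0.84, adjusted p = 0.0026). In each gene gonad 3 was the highest gonad array and tail 2 the lowest tail array, so the 2 high-background arrays lay nearest to each other without meeting. Isg15, a ubiquitin-like protein, differed by -3.07 and Irf7, a factor that amplifies the response, by -2.66. Oasl2 differed by -3.48 (adjusted p = 0.011) but lost its call when gonad 1 or tail 1 was left out (0.0645 to 0.0685). The signalling factor Stat2 (-1.79, adjusted p = 0.0572) did not pass the test. The mean over the 19 genes was -2.32, -2.28 and -0.51 in gonad, against 1.22, 0.37 and 0.71 in tail. Macrophage and leukocyte markers, of which none of 14 was called (2 lower without gonad 3, 1 each way without heart 1), averaged -4.13, -3.94 and -1.63 in gonad, against -3.11, -2.28 and -2.81 in tail. Their part in the interferon result was not tested.

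Chemokines and cytokines were lower in 7 of 27 tested and higher in 2. None was higher without gonad 1, gonad 2 or tail 2, 1 without tail 1 or tail 3, and 4 without heart 1. Ccl7, which attracts monocytes, read 1.88, 2.62 and 1.71 in gonad, against 6.90, 6.50 and 6.64 in tail (-4.61 ± 0.59, adjusted p = 0.000278). Cxcl5, which attracts neutrophils, read -7.47, -6.73 and -4.32 in gonad, against 3.86, 3.11 and 3.52 in tail, with 1 of 3 gonad arrays well above background (-9.67 ± 1.37, adjusted p = 0.000576). Il1rl1, the receptor for interleukin 33, read -3.06, -4.09 and -4.34 in gonad, against 4.51, 4.55 and 4.20 in tail (-8.25 ± 0.46, adjusted p = 3.32e-07), and 2 other probes differed by -6.27 and -3.68. All tail arrays were high and all gonad arrays low for these genes. Tslp, an epithelial and stromal alarm cytokine, differed by -4.17. Il6 was higher in gonad at 2.96 (adjusted p = 0.0109), with 0.0548 to 0.0554 when gonad 1, gonad 2 or tail 2 was left out. Of 18 complement genes 2 rose and 3 fell, with 1 higher without gonad 2 or tail 3 and 5 lower without gonad 3. Cfb, factor B of the alternative pathway, read -4.53, -3.35 and -2.93 in gonad, against 2.67, 1.78 and 2.32 in tail (-5.86 ± 0.74, adjusted p = 0.000235).

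Contractile and smooth muscle genes rose in 5 of 16 tested and fell in none (median 1.42). With quantile normalization, with or without normexp, 10 rose, against 3 with scaling to the median of detected probes, where the median was 0.41, and 11 rose without heart 1. Myh11, smooth muscle myosin, read 3.43, 3.84 and 2.93 in gonad, against -1.31, -0.76 and -0.75 in tail (4.34 ± 0.59, adjusted p = 0.000401). Des, the muscle intermediate filament desmin, read 3.23, 3.68 and 2.61 in gonad, against -1.91, -0.70 and -1.36 in tail (4.50 ± 0.80, adjusted p = 0.0031). Casq2, a calcium store protein of heart muscle, read 3.06, 2.53 and 1.66 in gonad, against -5.04, -1.64 and -4.40 in tail (6.11 ± 1.02, adjusted p = 0.00204). Gonad arrays were above tail arrays throughout, with tail 2 the highest tail array for Des and Casq2. Mylk, the kinase that starts smooth muscle contraction, differed by 2.65 ± 0.34 (adjusted p = 0.000274). The common myofibroblast markers Acta2 (0.61) and Tagln (0.70) did not pass the test. Of 19 skeletal muscle markers, Des alone was called, and 2 more were lower without gonad 3.

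Fibroblast markers were present on both sides and some were lower in gonad. Of 19 tested none rose and 4 fell (2 without gonad 1, 7 without heart 1), and 19, 18 and 19 were well above background on the gonad arrays, against 19 on each tail array. Vim, Pdgfra and Thy1 differed by -0.06, -0.43 and -0.24, none of them called. Ly6a, the antigen Sca-1 of adventitial and progenitor-like fibroblasts, read -0.81, -1.07 and -1.00 in gonad, against 6.77, 6.69 and 6.98 in tail (-7.77 ± 0.85, adjusted p = 8.4e-05), and all 12 arrays of other organs lay below the tail arrays (-1.64 to 4.85). Pi16, a marker of the same fibroblasts, differed by -3.00 (adjusted p = 0.00941, and 0.0565 without gonad 1). The calls of Lum (-3.92) and Mfap5 (-2.69) were lost without gonad 3 and tail 2 (adjusted p = 0.0662 and 0.0601), and that of Lum also without gonad 1 or tail 1 (0.0644 to 0.0674).

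Markers of 2 other cell types were higher in gonad. Of 18 endothelial markers 9 rose and 1 fell, with a median of 2.73 (1.73 with scaling to the median of detected probes). Cdh5, the junction cadherin of endothelium, read 1.35, 1.98 and 1.83 in gonad, against -5.06, -4.51 and -4.44 in tail (6.39 ± 0.74, adjusted p = 0.000119), with 1 of 3 tail arrays well above background. Robo4, an endothelial guidance receptor, read 0.49, 3.47 and 2.42 in gonad, against -6.06, -6.70 and -4.32 in tail, and was at least 116-fold higher (adjusted p = 0.000209). Gonad 1 was the lowest gonad array for both, and no tail array reached it. Emcn (6.56 ± 0.88, adjusted p = 0.000389), Mmrn2 (6.25 ± 0.76, adjusted p = 0.000177), Flt1 (4.97) and Ptprb (5.15) were higher as well. Pecam1 (1.69, adjusted p = 0.286), Kdr (0.31, adjusted p = 0.835) and Vwf (0.92, adjusted p = 0.731) did not pass the test, though all 3 were well above background on all 6 arrays, and Tek was lower (-2.70 ± 0.58, adjusted p = 0.011). The mean over the list was -0.45, 1.45 and 1.10 in gonad, against -3.07, -2.19 and -2.43 in tail, and 17, 18 and 18 members were well above background on the gonad arrays, against 13, 15 and 11 on the tail arrays.

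Of 14 mesothelial markers, which overlap with the regulators of the gonad in Wt1 and Rspo1, 9 rose and none fell, with a median of 4.24. The higher count became 7 without gonad 2, tail 1 or tail 3, and 7 without gonad 3 and tail 2. With quantile normalization 11 rose and 1 fell, and with scaling to the median of detected probes 6 rose and 1 fell. Gpm6a, a membrane glycoprotein, read 0.57, 0.04 and -0.83 in gonad, against -6.81, -6.82 and -6.81 in tail, and was at least 26.4-fold higher (adjusted p = 5.83e-06). Lrrn4, a leucine-rich repeat protein of mesothelium, read -0.94, 0.14 and -1.04 in gonad, against -6.86, -4.75 and -6.74 in tail, and was at least 18.2-fold higher (adjusted p = 0.0007). Neither was well above background on a tail array. Upk3b, a uroplakin of mesothelium, differed by 5.34. The mean over the list was -0.27, 0.54 and 0.28 in gonad, against -3.58, -2.75 and -3.73 in tail. The part of endothelial and mesothelial cells in the results for the regulator, basement membrane, retinoic acid and contractile genes higher in gonad was not tested. Keratinocyte markers rose in 2 of 22 (Pkp1 at 3.08 and Perp at 2.91) and fell in none. Pkp1 lost its call without gonad 1, tail 1 or tail 3 (0.0735 to 0.0874) and Perp without gonad 2, tail 1 or tail 3 (0.0558 to 0.0575). Of 13 melanocyte and Schwann cell markers, Mitf alone was called (-2.96 ± 0.48, adjusted p = 0.00156), and of 10 adipocyte markers Cebpa alone (-3.72 ± 0.49, adjusted p = 0.000304), both lower in gonad. Without gonad 3, 3 melanocyte and Schwann, 2 adipocyte and 2 keratinocyte markers were lower. None of 26 cell division genes was called (3 higher without heart 1), with a median of 0.67 (-0.33 with scaling to the median of detected probes).

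**Figure D4:**
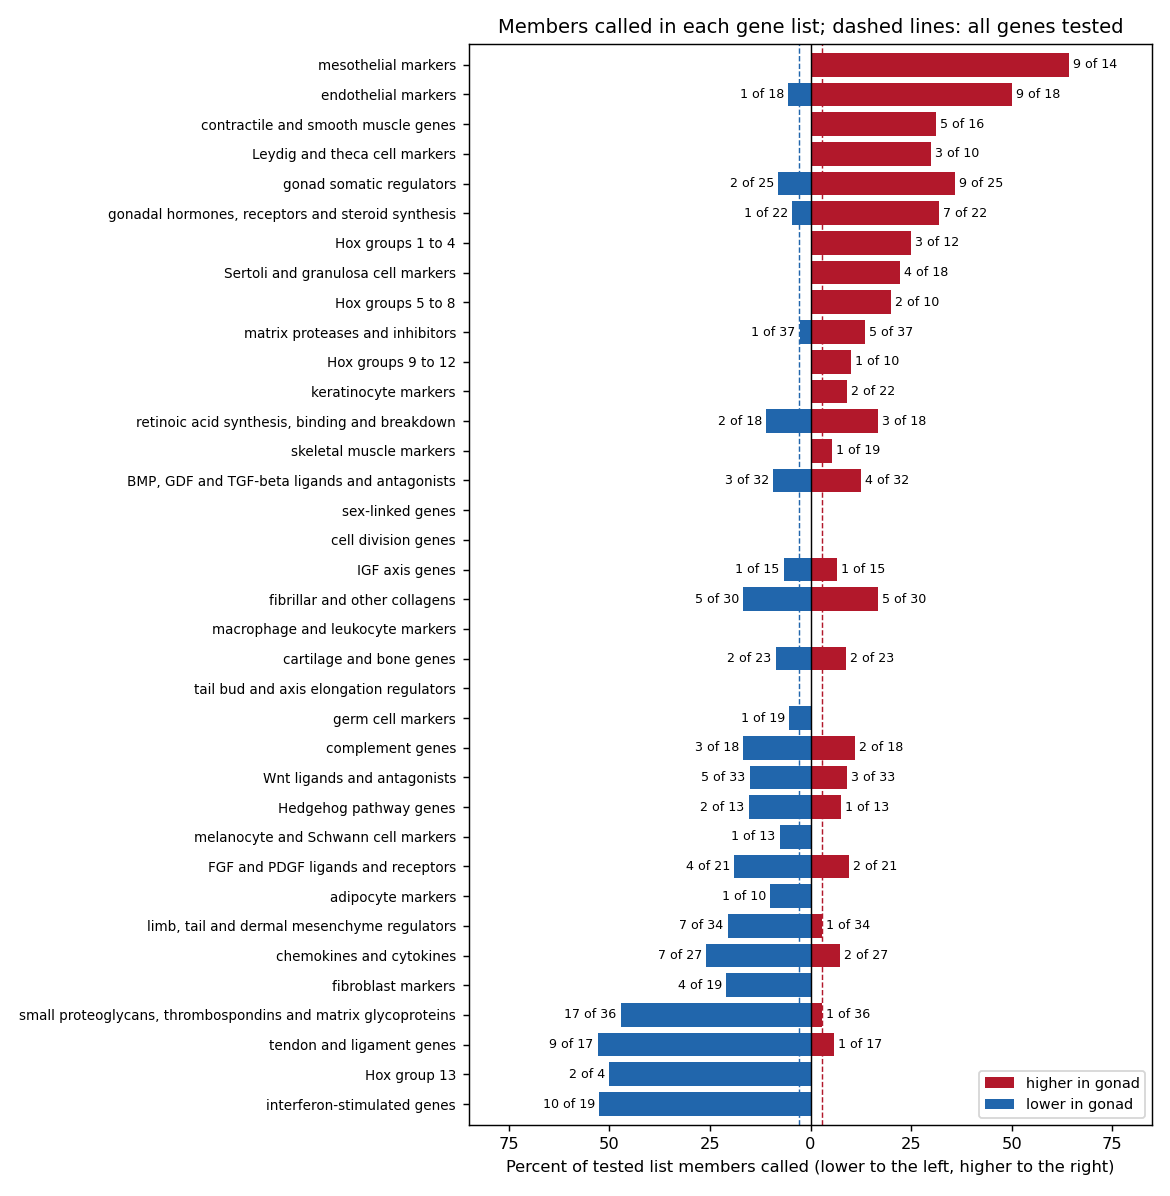
Share of the tested members of each of 36 gene lists that was called higher (red, to the right) or lower (blue, to the left) in gonad than in tail, with counts beside the bars and dashed lines at the 2.89% and 2.88% of all tested genes called. Mesothelial and endothelial markers stand at the top, and interferon-stimulated, group 13 Hox, tendon and matrix glycoprotein genes at the bottom.

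Several of the largest differences lay outside these lists. Ctla2a, which encodes a cysteine protease inhibitor, read 7.40, 7.90 and 7.46 in gonad, against -0.73, -1.57 and -0.58 in tail (8.55 ± 0.46, adjusted p = 3.32e-07), and its close copy Ctla2b differed by 8.25 ± 0.45 (adjusted p = 3.32e-07). Probes of such near-identical genes may read both transcripts. The same holds for Clca3a1 (7.97) and Clca3a2 (7.65), both higher. Plac8 read 6.42, 6.40 and 5.77 in gonad, against -1.13, -2.34 and -1.02 in tail (7.69 ± 0.60, adjusted p = 6.66e-06). Acsbg1, an acyl-CoA synthetase of brain and steroid-making tissue, was at least 407-fold higher, and Heyl, a Notch target, at least 56.3-fold higher, with no tail array well above background for either. On the tail side Penk, the enkephalin precursor, read -4.55, -4.60 and -4.76 in gonad, against 4.39, 4.18 and 4.35 in tail (-8.94 ± 0.70, adjusted p = 6.66e-06). Dio3, the enzyme that inactivates thyroid hormone, read -4.49, -4.09 and -3.21 in gonad, against 4.56, 4.07 and 4.25 in tail (-8.23 ± 0.65, adjusted p = 6.73e-06). Zic1, a zinc-finger factor of dorsal somite and neural tube, read -7.51, -7.47 and -3.71 in gonad, against 2.87, 2.60 and 2.63 in tail (-8.93 ± 1.03, adjusted p = 0.000118), while another probe of the gene differed by -0.85. For Penk, Dio3 and Zic1 each tail array was above each gonad array.

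The called genes were also placed among the arrays of the other organs. Of the 568 genes lower in gonad, 331 had all 3 tail arrays above all 12 arrays of heart, kidney, liver, lung and skin, and 17 had all 3 gonad arrays below them. Of the 570 genes higher in gonad, 112 had all 3 gonad arrays above those 12 arrays, and 125 had all 3 tail arrays below them. These counts were made among called genes only, and the share over all genes tested was not counted. Called genes were chosen by their gonad and tail values, which favours extreme arrays in either organ. The counts therefore do not show how gonad or tail stands among the organs in general. Each other organ's mean was also set against the gonad and tail means. Of the 570 higher genes, it lay nearer to the tail mean for 370 with skin, 354 with heart, 313 with kidney, 230 with lung and 149 with liver. Of the 568 lower genes, it did so for 208 with skin, 185 with heart, 132 with kidney, 187 with lung and 112 with liver. The kidney mean came from high-background arrays alone, and the heart mean took in heart 1, another such array. The difference between organs in these counts was not tested.

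Without gonad 3 and tail 2 the differences kept their direction in all 1138 called genes. Of the 180 called genes that belong to a list or were named by the rule, 90 higher and 90 lower, 71 higher and 71 lower were still called. Of the 164 genes named by the rule, 136 were called with all arrays, 113 of them also without gonad 3 and tail 2, and 104 with any single array of the fit left out. The fit without gonad 3 and tail 2 still held the high-background arrays heart 1, kidney 1 and kidney 2. Without all 5 high-background arrays, all 136 were called, and 134 were in the 6 arrays less gonad 3 and tail 2. Those fits also called far more genes in all, 5885 and 5750. The interferon genes show how the pair of arrays moves a list mean: gonad 3 stood at -0.51, against -2.32 and -2.28 for gonad 1 and 2, and tail 2 at 0.37, against 1.22 and 0.71 for tail 1 and 3. Germ cell markers, of which 4 of 19 were well above background on gonad 1 and on gonad 2, had means of -6.03, -5.91 and -2.62 in gonad, against -4.36, -2.88 and -3.50 in tail.

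**Figure D5:**
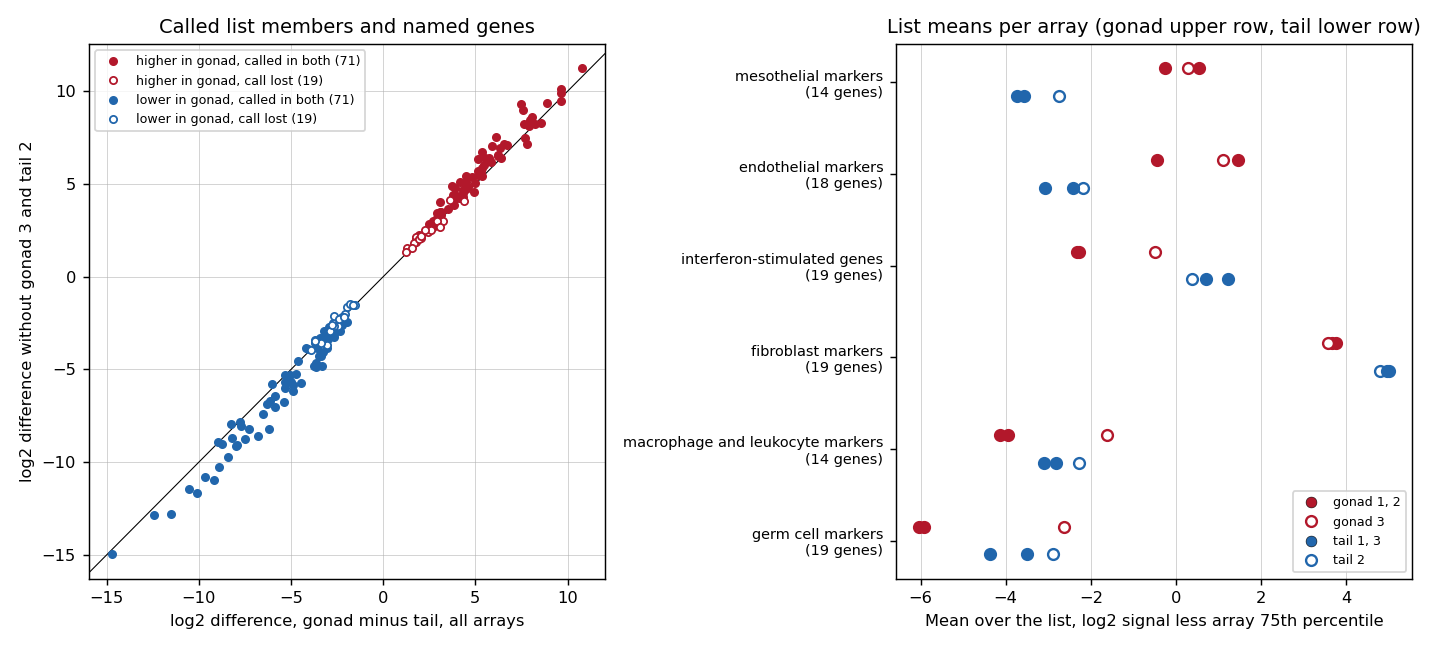
Left, the log2 difference (gonad minus tail) of 180 called genes with all arrays (horizontal axis) and without gonad 3 and tail 2 (vertical axis), filled where the call was kept (71 higher, 71 lower) and open where it was lost (19 higher, 19 lower), with the line of equality. Right, the mean scaled log2 signal of 6 gene lists on each gonad array (red, upper row) and tail array (blue, lower row), open circles marking gonad 3 and tail 2, which stand above their group in the leukocyte and germ cell lists.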

How the data were processed

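RNA of cultured fibroblasts was measured on 1-colour Agilent arrays, 1 array a sample. The authors deposited scanner output of Agilent Feature Extraction 11.0.1.1, per the file headers, whose processed signal is an intensity, background-subtracted and spatially detrended within the array and not normalized between arrays. The same deposited files hold flags for spots well above background, saturated or outlying. No spot was saturated, so the planned removal of saturated spots gave no other values. Arrays have no read depth, and precision is limited by how many there are. Of 19 samples, 18 had a scanner file, and 1 lung sample with none entered no fit.

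From these files, control and outlier spots were left out, spots of a probe were averaged, and log2 signal less the array's 75th percentile was taken. The probe with the highest mean signal stood for a gene, and 465 genes well above background on fewer than 2 arrays were dropped. The 18 arrays were fitted as 7 organ means with limma 3.58.1 in R 4.3.3, and gonad minus tail was tested two-sided with Benjamini-Hochberg adjustment over 19715 genes. SE is that of the fit. For a gene not well above background on any array of a group, the fold is a lower bound: the bright group's mean against, per array, the higher of the lowest signal among probes well above background and the dim probe's own. Named genes were the 15 largest called differences each way, the 4 largest called members each way of each of 36 lists, every Hox gene and 4 markers. Uncalled members of a described list are named with their values. Tcf21, Gata6, Nr2f2, Fdxr, Prrx2, Twist1, Tnmd, Vit, Matn2, Isg15, Irf7, Tslp, Flt1, Ptprb and Upk3b fall outside that rule and were chosen after their values were seen. The contrast and the lists were chosen with earlier results of these data known. Alternatives covered scaling, background correction, the authors' deposited value table (intensity), dim probes, probe choice, arrays in the fit, spread model, array weights, slide and replicate blocks and the fold threshold. The interferon core is 2 copies of GAAA with 2 bases between. Promoter sequences came from RefSeq (GRCm38.p6) and were matched by gene symbol. Some list members are counted in the lists but not reported by name here.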

Additional observations from a re-analysis of the deposited data

How the results depend on the processing

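Against 1138 calls (570 higher and 568 lower), scaling to the median of detected probes gave 203 higher and 1467 lower. Leaving out all 5 high-background arrays gave 5885 (1215 and 4670), or 2244 (1134 and 1110) with normexp and quantile normalization. Array weights, whose estimation did not converge, gave 7588 (1376 and 6212). Leaving out 1 array gave 718 to 2383 in all, 364 to 1013 higher and 344 to 1755 lower. The lowest total came without tail 1 and the highest without gonad 3. Lower calls were 357 without gonad 1 and 362 without tail 3. Of the alternatives added after seeing the data, the 6 arrays less gonad 3 and tail 2 gave 5750 (1187 and 4563), membership of the high-background arrays as a term gave 2298 (841 and 1457), and the share of spots above background as a covariate gave 2490 (880 and 1610). The cause of these shifts was not tested. The remaining settings lay within 1.5 times, from 857 with a log2 difference of at least 2 to 1405 with normexp and quantile normalization, and the slide block gave 1052. The replicate block gave 1027 (527 and 500). Same-numbered arrays had deviations from their organ mean correlated at 0.61, -0.64 and -0.18. Gonad 3 and tail 2, the high-background arrays of the contrast, correlated at 0.71. Deviations from a mean of 3 arrays also depend on each other. The check therefore cannot decide whether the numbers pair the samples beyond the shared slide. None of 180 called list members and rule-named genes, which take in every called gene the text names, changed direction in any of the 37 alternatives that tested it. Of the 136 called genes named by the rule, 130 kept their call with the replicate block. List medians had 1 sign on all 3 slides for 20 of 36 lists. Where few probes of a group stand above background, folds are bounds.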

Other observations

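Matrix proteases and their inhibitors held 5 members higher and 1 lower in gonad among 37 tested. The higher count became 2 without gonad 1, gonad 2, tail 1 or tail 3, 1 without tail 2, 3 without 1 of 7 liver, lung or skin arrays, and 2 without gonad 3 and tail 2. The lower count became 0 without gonad 1, gonad 2, tail 1 or tail 2, 5 without gonad 3, 6 without heart 1 and 2 without 1 of 4 kidney or liver arrays. Mmp17, a membrane-anchored matrix metalloprotease, read 2.70, 3.01 and 2.69 in gonad, against 0.06, 0.28 and 0.35 in tail (log2 difference 2.57 ± 0.32, limma adjusted p = 0.0002). All gonad arrays exceeded all tail arrays, and the call was kept with any single array left out. With scaling to the median of detected probes the list instead had no member higher and 6 lower, with a median of -1.65 against -1.30 over all genes. The tissue inhibitors Timp1 (0.34) and Timp3 (0.69) and the gelatinase Mmp2 (-1.64) did not pass the test.

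Further large differences fell to genes of other functions. Serpinb6b, a protease inhibitor of the serpin family, read 5.63, 5.39 and 4.66 in gonad, against -4.08, -5.27 and -3.84 in tail. Scin, an actin-severing protein, read 3.04, 1.14 and 0.22 in gonad, against -7.08, -4.54 and -6.69 in tail. Both were high on every gonad array and low on every tail array. Trpc6, a calcium channel, read 2.19, 2.02 and 1.53 in gonad, against -7.63, -2.23 and -6.77 in tail, where tail 2 stood apart from the other tail arrays. Car3, a carbonic anhydrase of fat and muscle, read -7.13, -7.29 and -3.26 in gonad, against 4.43, 5.52 and 4.02 in tail. Abi3bp, an extracellular matrix protein, read -6.97, -7.19 and -2.60 in gonad, against 4.65, 4.36 and 4.51 in tail. Gonad 3 was the highest gonad array for both Car3 and Abi3bp, well above gonad 1 and 2 and below every tail array.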
